A study of Homo sapiens with 6 samples.

Results

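Expression of 7 genes of transforming growth factor beta (TGF-beta) signalling was examined in HMC3, an immortalised human microglial cell line, after exposure to conditioned medium (CM) that held the complement protease C1s (C1s-CM, 3 libraries) or to CM without C1s (control CM, 3 libraries, titled FLAG). The 7 are the ligand genes TGFB1 and TGFB2, the receptor gene TGFBR2, the feedback repressor gene SKIL and the target genes FN1, TAGLN and LOX. They were picked by symbol out of the 5117 genes in the deposited table, and all 7 were found there and passed the filter on low counts. The genes were chosen by their differences between these same groups, with earlier results of the table known, so their differences are given below as a description, with standard errors and without tests. Every library came from cells labelled wild type and grown with serum, and the groups differ in the labels only in whether the medium held C1s. The labels do not name the cells that conditioned the medium, the dose of C1s or the time of exposure. They also do not tie the libraries to separate cultures, and every p-value therefore rests on a spread between libraries that may be technical. In bulk RNA, fewer cells of a kind and less RNA per cell cannot be told apart. The series title places the comparison in work on immunosuppression and microglial metabolism in mesenchymal glioblastoma.

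TGF-beta ligands are secreted in a latent form, held by their own propeptide until integrins, proteases or shear release them. The active ligand binds the type II receptor, which recruits and phosphorylates the type I receptor, and that receptor phosphorylates SMAD proteins that enter the nucleus and switch target genes on or off. In brain, TGF-beta is known for keeping microglia in their homeostatic state, and in glioblastoma for restraining immune cells and driving mesenchymal gene expression.

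The deposited table holds only genes with an adjusted p of at most 0.05 in the authors' own comparison, and other genes were not analysed here. Counts over the table summed to 12730766 to 14961744 per library, which is a part of each library's depth. In edgeR's quasi-likelihood test 99.4% of the 5116 genes tested passed an adjusted p of 0.05, 50.9% higher and 48.5% lower in C1s-CM, and the libraries of the groups did not overlap for 97.2% of genes. All 7 members had groups that did not overlap, and nothing is read from that count against such a background. The label of a microglial cell was weakly covered by the table. Of 18 listed markers of microglia and macrophages 1 had a row. Of 13 markers of fibroblasts and mural cells 4 had a row (PDGFRB, COL1A1, THY1 and S100A4), and their summed level was 5030 to 5160 CPM (the count scaled to a common library size) in C1s-CM and 4848 to 4947 in control CM. COL1A1 is also in the matrix list below. No marker of neurons, endothelial cells or lymphocytes had a row, against 2 of 9 for astrocytes and 1 of 8 for oligodendrocytes. Of 12 mitochondrial and nuclear RNAs taken as signs of RNA quality 10 had a row, 8 higher and 2 lower, and their summed level was 13470 to 13764 CPM in C1s-CM and 11377 to 11525 in control CM. The 8 were all mitochondrial, and the 2 were the nuclear RNAs MALAT1 (log2 fold change -0.53) and MEG3 (-0.18). With the offsets described below 8 of the 10 were called higher and 1 lower, beside 14.9% and 10.7% of all genes. Their median log2 fold change was 0.23 without offsets and 0.31 with them. The part of these markers and RNAs in the results below was not tested.

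The ligand genes differ in base composition, and that difference runs through the results below, so the matching ends of their coding sequences are shown first. Each is the last 150 coding bases before the stop codon, within 1 coding exon, and encodes the end of the mature ligand (5′ to 3′, from the GENCODE release 29 transcript). Capitals mark a G or C where the other gene has A or T at the same position.
TGFB1, chr19:41331055-41331204, minus strand, GRCh38: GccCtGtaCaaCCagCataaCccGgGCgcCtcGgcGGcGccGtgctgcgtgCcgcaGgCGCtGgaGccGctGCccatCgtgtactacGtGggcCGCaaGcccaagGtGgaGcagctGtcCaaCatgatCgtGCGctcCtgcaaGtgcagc
TGFB2, chr1:218441210-218441359, plus strand, GRCh38: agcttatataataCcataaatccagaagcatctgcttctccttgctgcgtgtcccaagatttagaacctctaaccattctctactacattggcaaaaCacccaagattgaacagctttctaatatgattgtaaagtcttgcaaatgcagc
The stretches had the same base at 94 of 150 positions (62.7%). In TGFB1 102 of the 150 bases were G or C (68.0%) and in TGFB2 58 were (38.7%). Over the whole coding part the values were closer, 62.6% in TGFB1 and 47.9% in TGFB2. Of the positions that differed, 46 had a G or C in TGFB1 only and 2 in TGFB2 only.

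Promoter sequences from RefSeq (GRCh38.p14) were found for 6 of the 7 members, TAGLN being the member without an entry. The 250 bases before each start were searched on both strands for the SMAD box CAGAC, the GC-rich SMAD site GGCGC, the AP-1 site TGACTCA and the CArG box of serum response factor. The SMAD box was present before the first listed start of the members with lower levels in C1s-CM, TGFB2, SKIL and LOX. It was absent for TGFB1, TGFBR2 and FN1, whose levels were higher. These directions are without the offsets described below, with which TGFB2 was at 0.12 and LOX at 0.01. Because the direction of change chose which genes stand side by side, this is a description of 6 promoters, and 38.0% of the 35116 promoters in the table hold that box. The promoters with a SMAD box are shown with that of TGFB1 for contrast, each ending before the RefSeq or GENCODE start, whichever comes first, with SMAD boxes and GC-rich SMAD sites in capitals.
TGFB1, chr19:41353923-41354172, minus strand: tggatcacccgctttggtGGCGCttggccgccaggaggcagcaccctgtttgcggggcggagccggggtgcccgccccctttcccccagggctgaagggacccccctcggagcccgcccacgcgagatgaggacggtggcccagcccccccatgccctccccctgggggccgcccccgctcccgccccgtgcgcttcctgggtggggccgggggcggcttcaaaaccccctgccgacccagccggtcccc
TGFB2, chr1:218345086-218345335, plus strand: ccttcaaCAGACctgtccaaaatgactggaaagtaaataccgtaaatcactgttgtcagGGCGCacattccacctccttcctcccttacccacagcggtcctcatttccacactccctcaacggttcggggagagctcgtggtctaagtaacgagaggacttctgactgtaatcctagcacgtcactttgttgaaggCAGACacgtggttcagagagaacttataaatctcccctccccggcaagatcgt
SKIL, chr3:170357465-170357677, plus strand: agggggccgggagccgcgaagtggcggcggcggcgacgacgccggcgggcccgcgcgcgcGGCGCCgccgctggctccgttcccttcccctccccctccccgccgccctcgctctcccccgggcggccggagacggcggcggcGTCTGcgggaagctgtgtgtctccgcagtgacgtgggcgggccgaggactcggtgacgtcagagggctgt
LOX, chr5:122078361-122078509, minus strand: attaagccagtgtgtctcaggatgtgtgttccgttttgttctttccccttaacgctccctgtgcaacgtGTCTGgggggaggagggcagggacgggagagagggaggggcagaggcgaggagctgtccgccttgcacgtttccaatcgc
The SMAD boxes of TGFB2 began 243 and 53 bases before its RefSeq start, that of SKIL 107 and that of LOX 181 bases before. GC-rich SMAD sites, found in 44.5% of all promoters, numbered 3 in the window of SKIL, of which 2 overlap and the third lies beyond the part shown, 3 in that of FN1 and 1 each in TGFB1 and TGFB2. No AP-1 site (4.20% of all promoters) and no CArG box (1.16%) was in these letters. The matches say nothing of binding.

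The ligand genes differed in opposite directions, except with the offsets for base composition described below, where TGFB2 turned. TGFB1 encodes the most widely expressed TGF-beta ligand, and had 2676, 2752 and 2750 counts in the C1s-CM libraries and 1841, 1902 and 2012 in the control libraries. Scaled to CPM with TMM factors, that is 197 ± 4.62 CPM in C1s-CM and 137 ± 2.50 CPM in control CM (SD, n = 3 each), a log2 fold change of 0.52 ± 0.03 (SE). Each C1s-CM library lay above each control library, by 0.47 to 0.59 log2 units over the pairs. TGFB2, which encodes a ligand that needs a co-receptor to bind the type II receptor well, had 1122, 1049 and 1106 counts in C1s-CM and 1306, 1477 and 1605 in control CM. Its level was 79.0 ± 4.73 CPM in C1s-CM and 104 ± 5.47 CPM in control CM, a log2 fold change of -0.41 ± 0.05. Every C1s-CM library was below every control library, with differences of -0.27 at the closest pair and -0.58 at the widest.

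**Figure D1:**
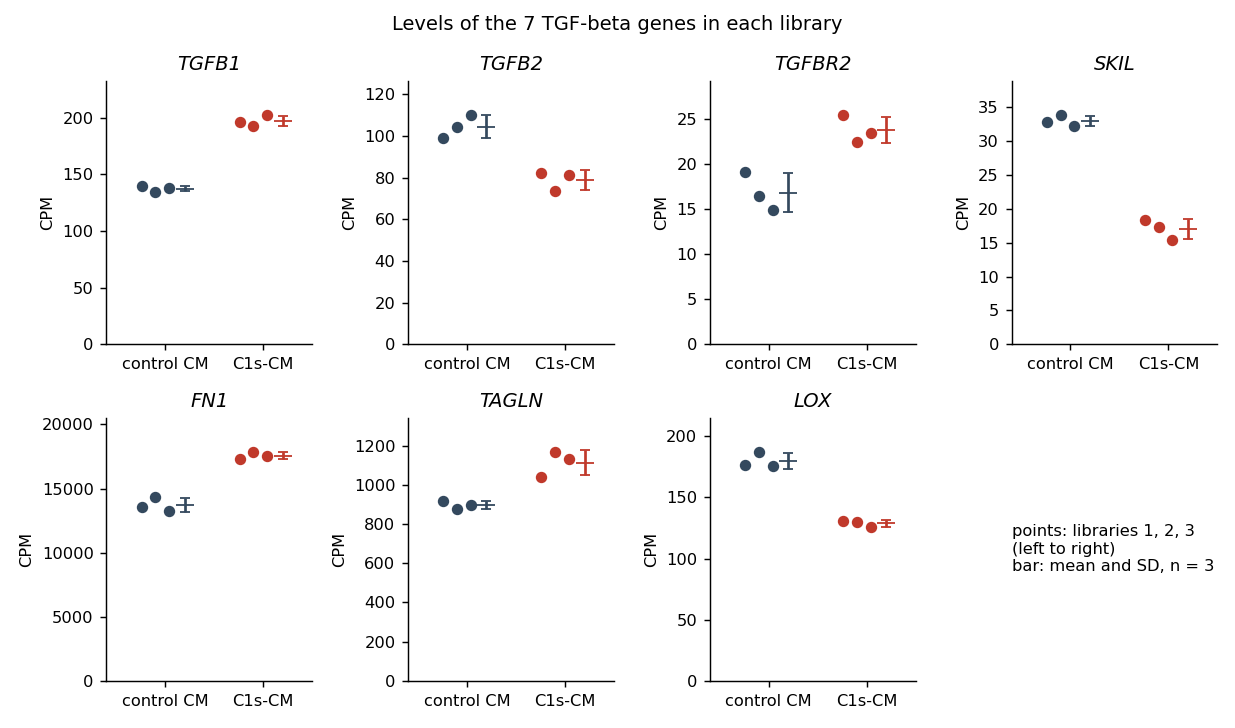
CPM (vertical axes, from 0) of each of the 7 genes in the 3 control CM libraries and the 3 C1s-CM libraries, with the mean and SD of each group beside the points. TGFB1, TGFBR2, FN1 and TAGLN lie higher in every C1s-CM library, and TGFB2, SKIL and LOX lie lower.

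TGFBR2, the type II receptor that all 3 TGF-beta isoforms signal through, had 347, 321 and 320 counts in C1s-CM and 252, 233 and 217 in control CM. The groups were 23.8 ± 1.48 and 16.8 ± 2.14 CPM, a log2 fold change of 0.50 ± 0.09. This was the noisiest of the 7 in control CM, where its coefficient of variation was 12.7% and counting alone would give 6.54%. The closest pair of libraries was 0.24 log2 units apart and the widest 0.77.

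SKIL encodes SnoN, which binds SMAD proteins and represses their targets, and is itself induced by TGF-beta as part of a negative feedback. The C1s-CM libraries held 250, 247 and 209 counts of it and the control libraries 433, 478 and 472. At 17.0 ± 1.50 against 33.0 ± 0.765 CPM it had the largest difference of the 7 without offsets, a log2 fold change of -0.96 ± 0.08, or 1.94-fold lower in C1s-CM. With the offsets described below it was -0.26, smaller in size than those of TGFBR2 and FN1. Its log2 fold change was the 24th lowest of the 5116 genes tested. Even the closest pair of libraries differed by -0.82.

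The target genes were divided. FN1 encodes fibronectin, a matrix glycoprotein, and had 236308, 254623 and 238382 counts in C1s-CM and 178841, 202838 and 193285 in control CM. It took 1.68% of all counts in the table in C1s-CM and 1.43% in control CM. Its level was 17554 ± 276 and 13718 ± 576 CPM, a log2 fold change of 0.36 ± 0.03, and at this depth counting error was small, 0.228% in control CM, beside a coefficient of variation of 4.20%.

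TAGLN, the actin-binding protein transgelin of contractile cells, had 14232, 16648 and 15404 counts in C1s-CM and 12085, 12361 and 13117 in control CM. The levels were 1114 ± 64.3 and 897 ± 20.6 CPM, a log2 fold change of 0.31 ± 0.03. Its groups came closest of all 7, with 0.19 log2 units between the lowest C1s-CM library and the highest control library. LOX, lysyl oxidase, which cross-links collagen and elastin, had 1782, 1854 and 1714 counts in C1s-CM and 2329, 2644 and 2569 in control CM. With 129 ± 2.52 and 179.9 ± 6.29 CPM its log2 fold change was -0.48 ± 0.04. So FN1 and TAGLN were higher while LOX, another matrix target, was lower, except with the offsets, where LOX lay near 0.

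The authors' deposited table gave the same 7 directions, with log2 fold changes of 0.56 for TGFB1, -0.37 for TGFB2, 0.54 for TGFBR2, -0.92 for SKIL, 0.39 for FN1, 0.35 for TAGLN and -0.45 for LOX. Over all genes the authors' values lay 0.04 above those from edgeR (median difference). With total counts as the only scaling the median log2 fold change of all genes went from 0.08 to -0.05, and the 7 directions were kept. Strand cannot tell apart reads of genes that overlap on the same strand. Without strand in the counting, the same holds for genes that overlap on opposite strands. Of the exonic bases of TGFB2 26.6% are shared with the noncoding RNA TGFB2-OT1 on the same strand. On the opposite strand TAGLN shares 11.4% with PCSK7, TGFB1 6.64% with HNRNPUL1 and LOX 2.49% with SRFBP1, while TGFBR2, SKIL and FN1 share none.

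Divided by the length of a representative transcript, so that genes can be set beside each other, the levels ran in the order FN1, TAGLN, TGFB1, LOX, TGFB2 in either group. In control CM these were 1737 ± 72.9, 414 ± 9.53, 49.6 ± 0.903, 35.3 ± 1.23 and 21.03 ± 1.10 CPM per kilobase. FN1 was the 55th and TAGLN the 186th of 5112 genes ranked by this level over all libraries. The lowest 2 members changed places. In control CM SKIL (4.59 ± 0.107 CPM per kilobase) was above TGFBR2 (3.64 ± 0.463), and in C1s-CM TGFBR2 (5.15 ± 0.320) was above SKIL (2.37 ± 0.209), with no overlap of libraries in either group. Without offsets, neighbours in the order were thus further apart than the spread between libraries. With the offsets described below, TGFBR2 was above SKIL in library control CM 1 too, and their control libraries overlapped. A level per kilobase rests on the transcript assumed for each gene.

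Within a library the ratio of the ligand transcripts does not depend on scaling between libraries. TGFB1 per kilobase was 4.28, 4.71 and 4.46 times TGFB2 per kilobase in the C1s-CM libraries and 2.53, 2.31 and 2.25 times in the control libraries. On the log2 scale the ratio was 2.16 ± 0.07 and 1.24 ± 0.09 (SD, n = 3 each), a difference of 0.92, so TGFB1 was the more abundant ligand transcript in every library and exceeded TGFB2 by more in C1s-CM. With the offsets for base composition described below the ratio was 3.25 to 3.58 in C1s-CM and 2.99 to 3.25 in control CM, and the difference was 0.14.

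**Figure D2:**
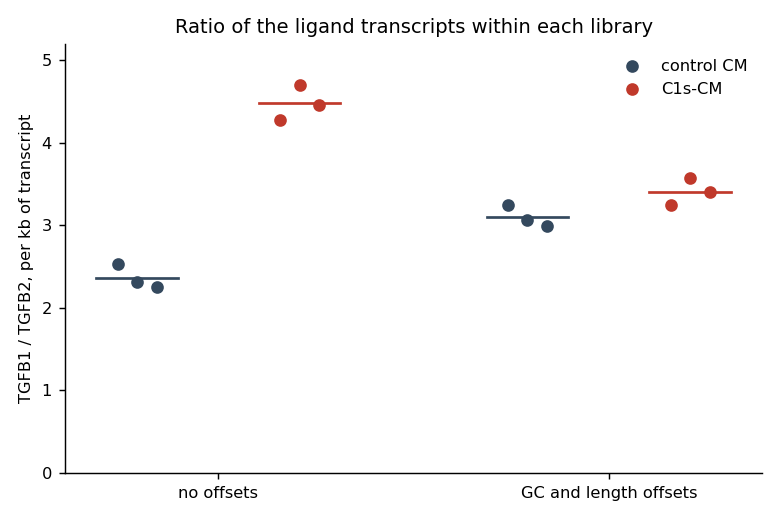
TGFB1 over TGFB2 per kilobase of transcript (vertical axis, linear from 0) in each library, as counted and with offsets for GC content and length, with points for libraries and lines for the geometric mean of each group. The ratio lies between 4.28 and 4.71 in C1s-CM against 2.25 and 2.53 in control CM, and with offsets the groups meet at 3.25.

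Across the table, differences tracked transcript GC content. The 5112 genes with a transcript, which are not independent replicates, gave a Spearman's rho of 0.85 for this relation. Among the 7 genes the direction of change followed transcript GC content, and its size did not. The members that were higher had transcripts of 63.5% (TGFB1), 56.3% (TAGLN), 49.7% (FN1) and 47.4% (TGFBR2) GC, and those that were lower of 39.6% (LOX), 38.6% (TGFB2) and 33.4% (SKIL). Every member with a higher level thus had a higher transcript GC content than every member that was lower. In the coding part alone LOX, at 58.8%, was above TAGLN (56.9%), TGFBR2 (52.4%) and FN1 (51.5%), and below TGFB1 (62.6%). TGFB2 (47.9%) and SKIL (40.6%) were the lowest there too.

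Set beside genes of like GC content (within 1 percentage point), TGFBR2 stood furthest apart. Of 149 such genes 73.2% were lower in C1s-CM, their median log2 fold change was -0.22, and 0 had a value above the 0.50 of TGFBR2. TGFB1 was above 342 of 345 genes, whose median was 0.28, and FN1 above 80 of 83, whose median was 0.13. SKIL, at the other end, was above 1 of 48 genes with a median of -0.66. TAGLN was above 254 of 286 genes, whose median was 0.20. TGFB2 and LOX lay among genes like them, TGFB2 above 424 of 583 genes (median -0.51) and LOX above 312 of 587 (median -0.50). The members were chosen for their change, so these places are a description.

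**Figure D3:**
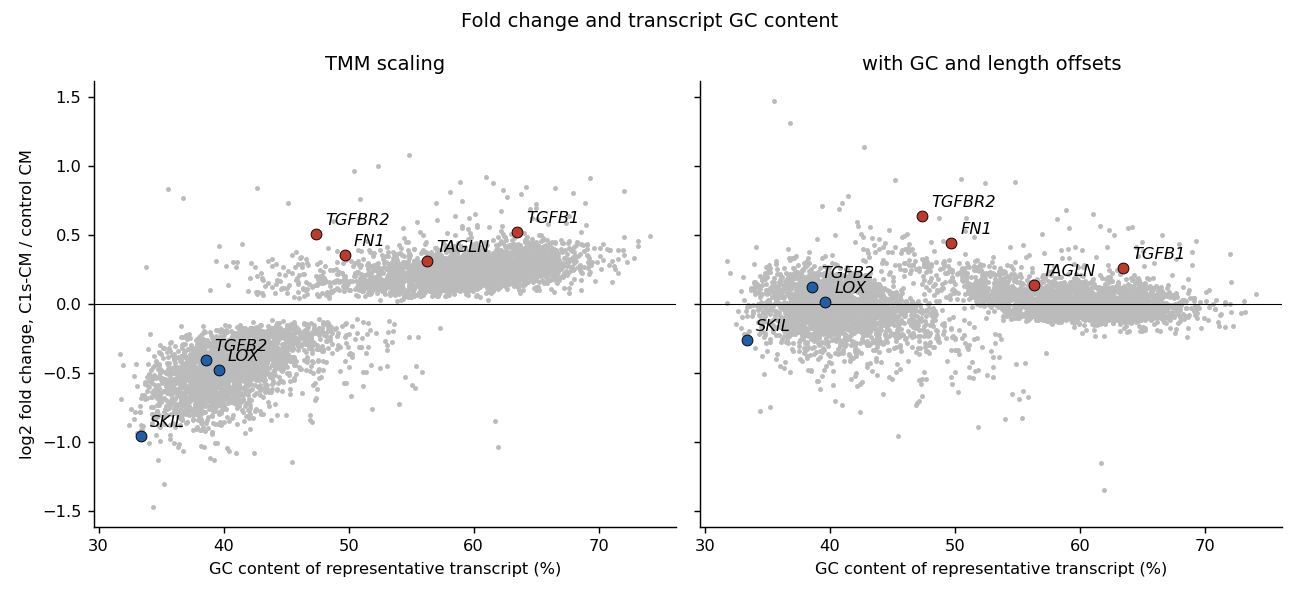
Log2 fold change of C1s-CM over control CM (vertical axis) against transcript GC content in percent (horizontal axis) for all genes (grey) and the 7 members (red where higher and blue where lower with TMM scaling), with TMM scaling on the left and with GC and length offsets on the right. The 6 genes beyond 1.6 log2 units are not drawn. TGFBR2 and FN1 stay well above 0 on the right, and TGFB2 and LOX move to 0.12 and 0.01.

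Offsets per library, fitted to GC content and transcript length, were then added to the same test. With them the log2 fold change was 0.64 ± 0.09 (SE) for TGFBR2 and 0.44 ± 0.03 for FN1, larger than without. For TGFBR2 the move was within its SD between libraries, 0.14 log2 units. The log2 fold change was 0.26 ± 0.03 for TGFB1, 0.13 ± 0.03 for TAGLN and -0.26 ± 0.08 for SKIL, in the same direction and smaller. TGFB2 turned to 0.12 ± 0.04 and LOX to 0.01 ± 0.03, and the libraries of the groups overlapped for these last members alone. In CPM with offsets TGFB2 was 94.7 ± 4.57 in C1s-CM and 87.1 ± 3.50 in control CM, LOX 153 ± 3.06 and 151 ± 4.46, and TGFBR2 24.9 ± 1.42 and 16.1 ± 2.09. FN1 depended on the transcript taken to stand for the gene: with its longest transcript (42.2% GC in place of 49.7%) the value was 0.78. The offsets were fitted on genes that the authors had called, and they also remove any true change that follows GC content.

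**Figure D4:**
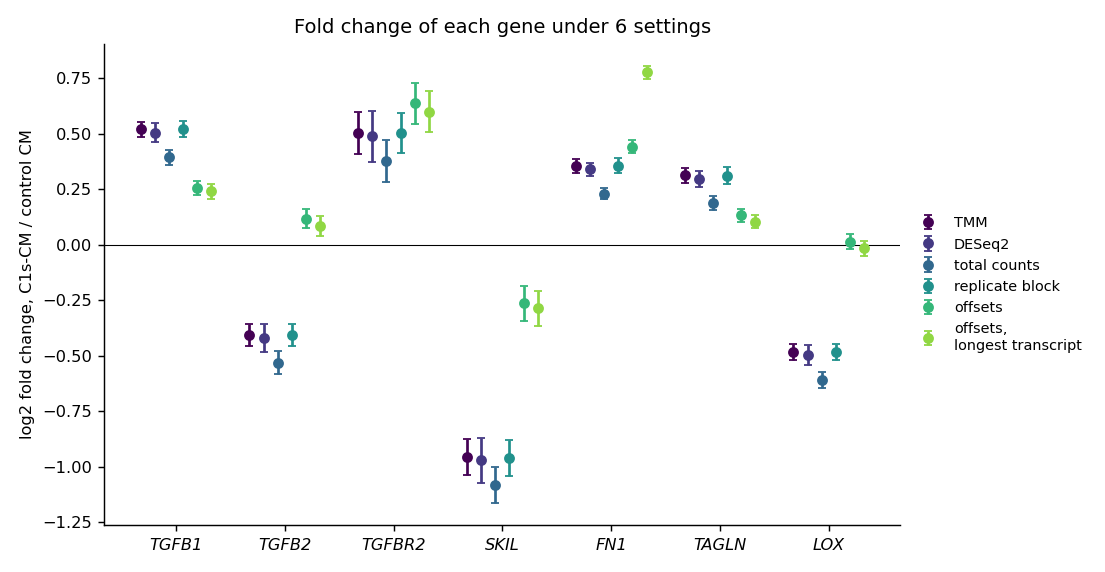
Log2 fold change of C1s-CM over control CM with its SE (vertical axis) for each of the 7 genes under 6 settings. Total counts shift the genes down (FN1 from 0.36 to 0.23), the offsets move SKIL from -0.96 to -0.26, turn TGFB2 and bring LOX to 0.01, and the longest transcript raises FN1 further to 0.78.

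The rest of the pathway was taken from 9 lists of 185 genes by role, none of them a member, of which 83 had a row. By the quasi-likelihood test of edgeR, with Benjamini-Hochberg adjusted p over all table genes, 37 of the 83 were called higher and 45 lower. That is 44.6% and 54.2%, beside 50.9% and 48.5% of all genes tested, and 1 was not called. The authors had already called every gene of the table on the same libraries. Calls and adjusted p without offsets, here and below, were therefore largely fixed beforehand. The median log2 fold change of the 83 was -0.20, that of all genes 0.08. With offsets 14 were called higher and 20 lower, or 16.9% and 24.1%, beside 14.9% and 10.7% of all genes. Of the 83 genes 7 were called higher and 9 lower with and without offsets, 7 went from lower to higher and 10 from higher to lower. No share over all genes was set beside these counts, and nothing is read from them. The genes called higher had a median GC content of 59.2% and those called lower 40.8%.

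Among further ligands of the superfamily 2 of 15 had a row. INHBA, the activin A subunit, had a log2 fold change of -0.51 (SE 0.08, edgeR adjusted p = 1.44e-06), from 36.2 ± 0.696 to 25.3 ± 2.62 CPM. INHBB, the activin B subunit, rose by 0.17 (adjusted p = 0.0031), and was not called when total counts alone set the scale (0.04). With offsets neither was called, at 0.01 and -0.0024.

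Of 20 genes that store or activate latent TGF-beta 6 had a row, of which 3 rose and 3 fell. Among all genes 50.9% were higher and 48.5% lower. ITGAV, the integrin alpha v subunit that binds latent TGF-beta, fell by 0.78 (SE 0.04, edgeR adjusted p = 2.42e-13), from 142 ± 7.08 to 82.6 ± 1.49 CPM. Its partner subunits ITGB1 (-0.45) and ITGB8 (-0.57) fell as well, and FURIN, the protease that cleaves the propeptide, rose (0.22). With offsets 0 of the 6 were called higher and 3 lower, beside 14.9% and 10.7% of all genes. ITGAV was still called lower (-0.22), while ITGB1 (0.0099), ITGB8 (0.0059) and FURIN (-0.02) turned and were not called. LTBP3 (0.15 without offsets and -0.14 with them) and MMP14 (0.09 and -0.11), named after their values were seen, were also called lower then. FURIN was not called either when total counts alone set the scale (0.09).

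Of 14 other receptors 4 had a row, and all 4 fell, beside 48.5% of all genes and 99.7% of the genes with a GC content near that of TGFB2. TGFBR1, the type I receptor that TGFBR2 phosphorylates, had a log2 fold change of -0.62 ± 0.06 (SE, edgeR adjusted p = 1.57e-09), from 71.8 ± 3.78 to 46.8 ± 3.13 CPM. The activin receptor ACVR2A had -0.62 and the BMP receptors BMPR1A and BMPR2 -0.50 and -0.43. With offsets TGFBR1 (-0.09), ACVR2A (-0.08) and BMPR1A (-0.0004) were not called, and BMPR2 turned to 0.16 and was called higher. The median GC content of the 4 transcripts was 38.8%.

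Of 18 SMADs and nuclear partners 10 had a row, and 1 rose and 9 fell, beside 50.9% higher and 48.5% lower of all genes. The median GC content of the 10 was 43.5%. SMAD5, which carries BMP signals, had a log2 fold change of -0.67, and SMAD2, which carries TGF-beta and activin signals, -0.41. TEAD1, the DNA-binding partner of YAP, had -0.53, from 244 ± 5.94 to 169 ± 2.03 CPM, and YAP1 itself -0.36. With offsets 5 genes were called lower, beside 10.7% of all genes, and TEAD1 (-0.14) was among them. With the longest transcript TEAD1 (-0.076) lost its call. The YAP paralogue WWTR1, known as TAZ, named after its values were seen, had -0.27 without offsets and -0.39 with them. SMAD5 (-0.07), SMAD2 (0.10) and YAP1 (-0.0056) were then not called.

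Of 25 inhibitors 11 had a row, and 4 rose and 7 fell, beside 50.9% higher and 48.5% lower of all genes. The median GC content of the 11 was 44.1%. PPP1CA (0.34) and PPP2R1A (0.26), subunits of phosphatases that act on receptors and many other proteins, rose, as did FSTL3, which binds activin (0.27). SMURF2, a ubiquitin ligase that targets receptors and SMADs, fell by 0.45. With offsets PPP1CA (0.07), PPP2R1A (0.18) and SMURF2 (-0.20) kept direction and call, and FSTL3 (-0.0096) turned and lost its call. In all, 5 of the list were then called higher and 1 lower, beside 14.9% and 10.7% of all genes. With offsets from the longest transcript SMURF2 turned to 0.04 and PPP1CA (0.05) lost its call, as PPP1CA also did with the replicate block and offsets (0.07).

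Of 17 kinases, adaptors and a GTPase of the SMAD-independent branch 12 had a row, and 4 rose and 8 fell. Among all genes 50.9% were higher and 48.5% lower, and the median GC content of the 12 was 43.9%. AKT1 (0.25) and MAPK3, or ERK1 (0.25), rose, and the TAK1-binding protein TAB2 (-0.41) fell. With offsets 1 of the 12 was called higher and 0 lower, beside 14.9% and 10.7% of all genes. AKT1 (0.05) and TAB2 (-0.11) then missed the threshold, as did MAPK3, which turned to -0.02. The 1 was PAK2, named after its values were seen, which fell by 0.24 without offsets and was 0.26 with them.

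Of 20 early targets of SMADs 8 had a row, 3 higher and 5 lower, beside 50.9% higher and 48.5% lower of all genes. CCN2, a matricellular protein induced by TGF-beta and YAP, fell by 0.22 (SE 0.03, edgeR adjusted p = 1.24e-07), from 440 ± 1.64 to 379 ± 6.88 CPM, and by 0.26 with offsets. The cell cycle inhibitor CDKN2B had -0.37 and the transcription factor ZEB1 -0.78, at 3.71 ± 0.360 CPM in C1s-CM, and CDKN1A, another cell cycle inhibitor, rose by 0.16. With offsets CDKN2B (-0.09), ZEB1 (-0.28) and CDKN1A (-0.04) were not called, although CDKN2B was with the longest transcript (-0.13). Total counts as the scale also ended the call of CDKN1A (0.04).

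Of 31 matrix targets 12 had a row, of which 7 rose and 4 fell, beside 50.9% higher and 48.5% lower of all genes. The median GC content of the 12 was 58.4%. The collagen lysyl hydroxylase PLOD2 (-0.51), the proteoglycan VCAN (-0.40) and the prolyl hydroxylase subunit P4HA1 (-0.27) fell beside LOX, and the protease inhibitor TIMP1 rose (0.25). COL1A1, the 1 gene of the 83 not called, was at 3741 ± 40.2 CPM in control CM and 3813 ± 75.4 in C1s-CM. With offsets 1 matrix gene was called higher, P4HA1 (0.12), and 6 lower, COL1A1 (-0.19) among them, beside 14.9% and 10.7% of all genes. PLOD2 (0.01), VCAN (0.01) and TIMP1 (0.0082) were then not called. The list's median was 0.09 without offsets and -0.07 with them, where FN1 had 0.36 and 0.44.

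Of 25 contractile and cytoskeletal genes 18 had a row, the fullest list, with 14 higher and 4 lower, beside 50.9% higher of all genes and 98.3% of the genes with a GC content near that of TAGLN. The median was 0.21, beside 0.31 for TAGLN. The myosin light chain MYL6 (0.36), filamin FLNA (0.35) and talin TLN1 (0.30) rose, and caldesmon CALD1 fell (-0.52, from 508 ± 10.5 to 355 ± 8.82 CPM). With offsets MYL6 (0.17), FLNA (0.12), TLN1 (0.16) and CALD1 (-0.08) kept direction and call, and the median was -0.03, beside 0.13 for TAGLN. In all, 5 genes of the list were then called higher and 4 lower, beside 14.9% and 10.7% of all genes. Their median GC content was 57.7%, and that of the TAGLN transcript 56.3%.

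**Figure D5:**
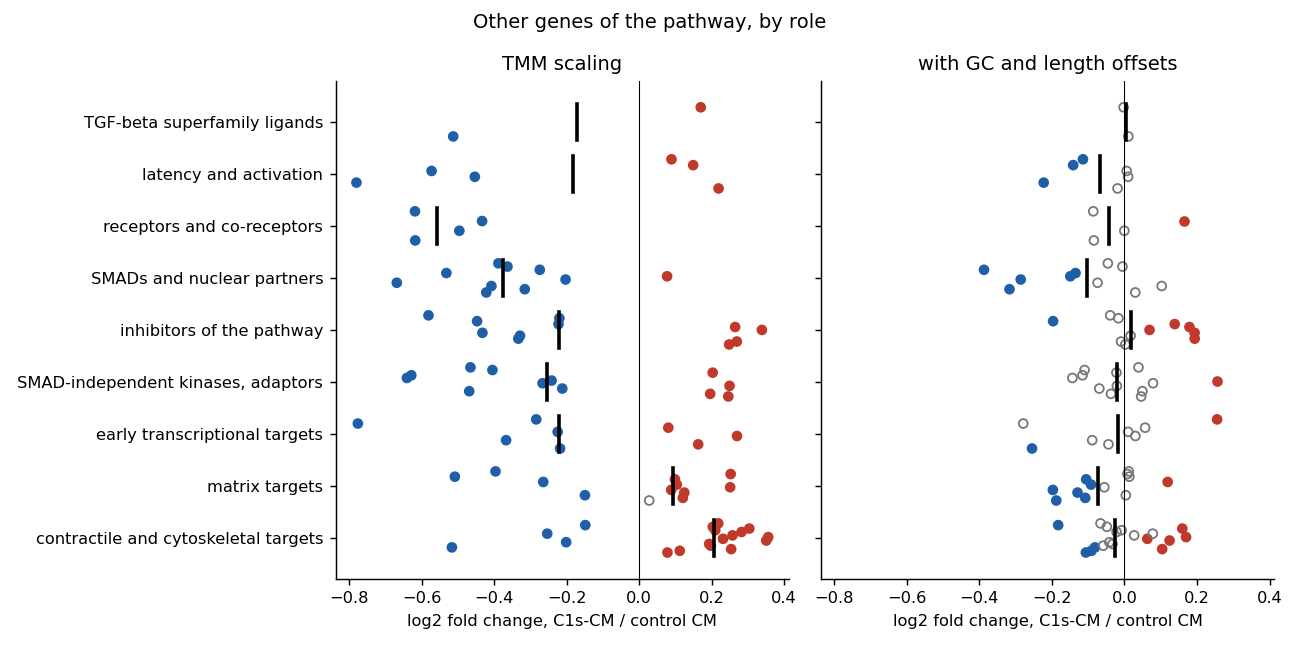
Log2 fold change of C1s-CM over control CM (horizontal axes) for the 83 other pathway genes by role, with TMM scaling on the left and with GC and length offsets on the right. Red and blue points are called higher and lower, open points are not called and bars are medians. The receptors all lie below 0 on the left (median -0.56) and around it on the right (median -0.04).

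Among 4774 other genes that averaged 10 CPM or more, the levels most like those of TGFB1 over the 6 libraries were those of TMEM94, MRPL37 and USP11, with Pearson's r of 0.999 for each. Those most like TGFB2 were PCNP, DPY19L1 and SCP2, with r of 0.998, 0.997 and 0.996. The log2 fold changes of the first were 0.24 to 0.27 and of the others -0.58 to -0.37. With 2 groups of 3 libraries and a table of genes that differ between them, such values chiefly describe the difference between the groups. All genes were read in the same 6 libraries, and their differences tracked GC content, so no p is given.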

How the data were processed

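RNA sequencing of 6 HMC3 libraries was analysed, 3 per group, grouped by their titles. Poly(A) RNA was, per the labels' protocols, sequenced from both ends of each fragment on 1 of several instruments. Per the submitters' processing notes the tools were FastQC 0.11.9, Trim Galore 0.6.7, HISAT2 2.2.1 and DESeq2 1.40.2, on GRCh38. Neither labels nor files name the counter, the annotation or the use of strand. The authors deposited raw counts per gene, not normalized, with their own log2 fold change, p-value and adjusted p-value, for genes up to adjusted p 0.05.

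Counts were fitted with edgeR 4.0.16 (R 4.3.3, TMM, filterByExpr, quasi-likelihood test, two-sided, Benjamini-Hochberg over 5116 genes, threshold 0.05). CPM refers to counts of the table with TMM factors, and standard errors are the log2 fold change over the square root of F. Offsets came from a loess fit (span 0.3) of centred log2 CPM on the GC content and length (log2) of a GENCODE 29 transcript, for 5112 genes. Of the identifiers 5113 of 5117 matched. The steps were tested on counts drawn at random, with a change set in a small part of the genes. The deposited genes were all called by the authors, so the draws do not show how the steps fare on them. Alternatives were DESeq2 1.42.0, other scalings and filters, a replicate block, the offsets and leaving out each library.

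The members and lists were chosen with earlier results of these data known. Genes named are the members, up to 4 per list with the smallest p, and the 3 genes most like each ligand. Exceptions are marked, and some named genes are not reported here.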

Additional observations from a re-analysis of the deposited data

How the results depend on the processing

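DESeq2, its size factors, no filter, a filter of at least 50 counts in 3 libraries, and the replicate block each left the 7 log2 fold changes within 1 SD between libraries, with 34 of 34 named pathway genes unchanged in call and direction. The labels do not say that the numbers pair libraries, so they were not taken as pairs. Deviations of same-numbered libraries from their group means had r of -0.13, -0.09 and -0.0031. With 3 libraries per group, whose deviations sum to 0, this cannot decide whether libraries were paired. The replicate block called 5054 genes, 2573 higher and 2481 lower. Leaving out 1 library gave 0.50 to 0.54 for TGFB1, -0.44 to -0.36 for TGFB2, 0.42 to 0.60 for TGFBR2, -1.01 to -0.89 for SKIL, 0.33 to 0.40 for FN1, 0.28 to 0.36 for TAGLN, -0.50 to -0.45 for LOX, 0.89 to 0.97 for the log2 difference of the ligand ratio, 4996 to 5051 genes called, and 35 to 37 pathway genes higher and 45 lower.

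With total counts as the only scaling TGFB1 had 0.39, TGFB2 -0.53, SKIL -1.08, FN1 0.23, TAGLN 0.19 and LOX -0.61, with 1336 genes and 19 pathway genes higher, and 3 named pathway genes lost their call. With GC and length offsets 1307 genes were called, 762 higher and 545 lower, and 14 pathway genes higher and 20 lower. The members had 0.26 (TGFB1), 0.12 (TGFB2), -0.26 (SKIL), 0.44 (FN1), 0.13 (TAGLN) and 0.014 (LOX), and the ligand ratio 0.14. TGFBR2, at 0.64, stayed within 1 SD between libraries. Of the 34 named genes 11 kept direction and lost their call. Another 13 turned in sign: INHBA 0.011, INHBB -0.0024, ITGB1 0.0099, ITGB8 0.0059, FURIN -0.019, BMPR2 0.16, SMAD2 0.10, FSTL3 -0.0096, MAPK3 -0.021, CDKN1A -0.044, VCAN 0.012, PLOD2 0.013 and P4HA1 0.12. Of these 13 only BMPR2 and P4HA1 were called with offsets, and the rest lost their call too. Turned, here and below, refers to the sign alone. With the longest transcript 1408 genes were called, 805 higher and 603 lower, and 12 pathway genes higher and 20 lower. TGFB1 then had 0.24, TGFB2 0.084, SKIL -0.29, FN1 0.78, TAGLN 0.10 and LOX -0.014, and INHBB -0.031, FURIN -0.025, BMPR2 0.16, SMAD2 0.082, FSTL3 -0.023, SMURF2 0.043, TAB2 0.048, MAPK3 -0.016, CDKN1A -0.076, VCAN 0.010, PLOD2 0.066 and P4HA1 0.071 turned, while 14 others lost their call, PPP1CA and TEAD1 among them. With the replicate block and offsets 1234 genes were called, 715 higher and 519 lower, and 12 pathway genes higher and 20 lower. TGFB1 had 0.26, TGFB2 0.12, SKIL -0.27, FN1 0.44, TAGLN 0.13 and LOX 0.014, and INHBA 0.0075, INHBB -0.0025, ITGB1 0.0097, ITGB8 0.0059, FURIN -0.019, BMPR1A 0.00023, BMPR2 0.16, SMAD2 0.10, FSTL3 -0.0093, MAPK3 -0.021, CDKN1A -0.044, VCAN 0.012, PLOD2 0.013 and P4HA1 0.12 turned, while 11 others, PPP1CA among them, lost their call. The cause was not tested.

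The table holds only genes that the authors called, so scaling and offsets rest on genes that differ, and depth beyond the table is unknown. TGFBR2 and SKIL, with 209 to 478 counts per library, are the members most limited by counting.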

Other observations

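Other pathway genes, named after their values were seen, differed by fit. The nuclear factors MRTFB (-0.32 as counted and -0.32 with offsets) and SP1 (-0.20 and -0.29), and the tropomyosin TPM4 (-0.15 and -0.18), were lower in C1s-CM either way, and the actin cross-linker ACTN1 (0.25 and 0.10) and the nonmuscle myosin MYH9 (0.23 and 0.06) higher either way. The collagen genes COL4A2 (0.12 and -0.11), COL6A1 (0.12 and -0.13) and COL6A2 (0.09 and -0.20), the LOX paralogue LOXL2 (0.10 and -0.09) and the actin genes ACTB (0.08 and -0.11) and ACTG1 (0.11 and -0.09) were called higher as counted and lower with offsets. GREM1, a BMP antagonist (-0.33 and 0.19), and the transcription factor ZEB2 (-0.28 and 0.26) went the other way. All values are log2 fold changes of C1s-CM over control CM from edgeR.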
